A study of Mus musculus with 288 samples.

Results

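Small nucleolar RNAs (snoRNAs) and the host genes of snoRNAs were followed over 2 days in 12 mouse tissues. The set holds every gene with a single symbol of the form Snora, Snord or Snhg with a number, together with Gas5, which gave 57 of the 19938 genes measured. Of these, 31 are box C/D snoRNAs (Snord), 20 are box H/ACA snoRNAs (Snora) and 6 are host genes (Gas5, Snhg5, Snhg11, Snhg15, Snhg16 and Snhg17). C57/BL6 mice had lived for 1 week in 12 h of light and 12 h of darkness and then in constant darkness, a history that all groups share. The groups are 3 brain regions (hypothalamus, cerebellum, brainstem), 2 fat depots (white adipose, brown adipose), 2 striated muscles (skeletal muscle, heart), and lung, liver, aorta, kidney and adrenal gland, and none was treated or mutant. Sampling ran from CT18 to CT64 in steps of 2 h, which gave 24 arrays a tissue. CT stands for circadian time in hours, with CT0 at subjective dawn, and the RNA on an array was a pool from 3 animals. Age and sex are not given in the labels used here, and a time point had 1 pool, so that every error below is the spread of pools around a fitted curve or a tissue mean.

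SnoRNAs are short nucleolar RNAs that guide chemical modification of ribosomal RNA. Box C/D snoRNAs carry the methyltransferase fibrillarin and direct methylation of ribose, while box H/ACA snoRNAs carry the enzyme dyskerin and direct the change of uridine to pseudouridine. A few, among them Snord118 (U8), Snord14 (U14), Snord22 (U22) and Snora73 (U17), act instead in cutting the ribosomal precursor RNA. In mammals most are cut out of introns of host genes. Many hosts encode ribosomal proteins or translation factors, and others, such as Gas5 and the Snhg genes, encode no protein and have little known product besides their introns.

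In the RefSeq table, 50 of the 51 snoRNAs lay within the span of another gene, 37 in protein-coding genes and 13 in long noncoding RNA genes. Genes of ribosomal proteins held 21 of them. Snord118 alone lay in no other gene. The snoRNAs are 45 to 205 bases long, and a probe set in an intron reads mature snoRNA and unspliced host RNA alike, so the levels below do not tell these apart. In whole tissue, fewer cells of a type and less RNA per cell cannot be told apart either. The array holds 68 probe sets for the 57 genes, and the brightest was used where a gene had several. The pair for Snord118 and the pair for Snora30 each gave identical values on all 288 arrays. Over these arrays, the other probe sets of Gas5 followed the one used with r of only 0.594, 0.727 and 0.662. For the remaining genes with several, r was 0.824 and 0.833 (Snhg17), 0.877 (Snora21), 0.906 (Snhg11), 0.994 (Snora3) and 0.996 (Snord58b).

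Transcripts of snoRNA hosts are known for starting with a run of pyrimidines (C and T), the mark of genes whose translation follows growth signals. The starts of noncoding hosts whose snoRNAs recur below are shown to let this be read. Each line gives 50 bases before and 30 bases after the annotated start in GRCm38.p6 from RefSeq, 5′ to 3′ on the strand of the gene, with capitals for the longest run of at least 6 C or T bases that touches the 10 bases on either side of the start. Snhg12 holds Snora44 and Snora16a (chr4:132308628-132308707, + strand), Snhg3 holds Snora73a and Snora73b (chr4:132353657-132353736, - strand), Snhg1 holds Snord22 (chr19:8723437-8723516, + strand), 2410006H16Rik holds Snord49a and Snord49b (chr11:62602827-62602906, + strand) and Gas5 holds Snord47 (chr1:161035116-161035195, + strand, the downstream one of 2 annotated starts).
Snhg12: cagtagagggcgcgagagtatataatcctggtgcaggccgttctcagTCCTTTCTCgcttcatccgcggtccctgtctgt
Snhg3: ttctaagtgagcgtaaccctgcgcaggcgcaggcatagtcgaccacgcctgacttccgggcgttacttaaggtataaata
Snhg1: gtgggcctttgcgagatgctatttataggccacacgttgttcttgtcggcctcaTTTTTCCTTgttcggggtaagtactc
2410006H16Rik: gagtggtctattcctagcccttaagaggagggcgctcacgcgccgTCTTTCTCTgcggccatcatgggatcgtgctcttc
Gas5: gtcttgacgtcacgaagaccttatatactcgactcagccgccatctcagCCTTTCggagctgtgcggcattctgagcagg

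Snhg12 and 2410006H16Rik each had a run of 9 pyrimidines across the start, and in Snhg1 a run of 9 began only at base 5 of the transcript. The printed start of Gas5 had a run of 6, while its upstream start had none. Snhg3 had none of that length in the window. Over all host genes, 21 of 38 starts held such a run (55.3%), against 9592 of the 32851 starts in the whole table (29.2%). The search used the strand of the transcript only, and 35 of the 45 host genes had a start in the table.

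The first question was which snoRNAs and hosts rise and fall with a period of 24 h, and in which tissue. A cosine wave was fitted to the 24 log2 values of each gene. A wave was called where limma's moderated F test gave an adjusted p under 0.05 (Benjamini-Hochberg over all 19938 genes of the tissue), and its size is the fitted ratio of peak to trough with a 95% interval. Calls came for 51 of 684 pairs of member and tissue and touched 31 of the 57 members.

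Liver held the most. There 20 of the 57 members (35.1%) were called, against 26.8% of all genes. The 20 were 11 of the 20 box H/ACA snoRNAs, 8 of the 31 box C/D snoRNAs and the host gene Snhg15. The median fold over all members of each class, called or not, was 1.37 for box H/ACA and 1.14 for box C/D, against 1.09 over all genes. In 17 of the 19 called snoRNAs the peak lay between CT8 and CT13, the hours around the change from subjective day to subjective night.

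Snora44, a box H/ACA snoRNA in Snhg12, had the widest wave. Its log2 intensity in liver was lowest at 7.61 (CT18), had a median of 8.63 and was highest at 9.76 (CT36). On the first day it stayed above 9.2 from CT32 to CT38, and on the second it was above 9.0 from CT52 to CT62. The fitted ratio was 3.47 (95% interval 2.79 to 4.32) with a peak at CT9.17 ± 0.324 h (SE), at an adjusted p of 1.18e-08 (limma). Fitted to each day apart, the ratio was 3.41 with a peak at CT9.23 and 3.54 with a peak at CT9.1, so both days showed the same course. Snora16a, its neighbour in Snhg12, had a median of 10.76 and a highest value of 11.31 (CT36), with a ratio of 1.85 (1.60 to 2.14) with a peak at CT10.9 ± 0.44 h (adjusted p = 1.4e-06, limma).

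Snora73a and Snora73b, the U17 pair in Snhg3, moved alike. Their sequences are closely related, so that probes may not separate them. Snora73b was lowest at log2 9.77 (CT64), had a median of 11.19 and was highest at 11.93 (CT36), with a ratio of 2.36 (1.76 to 3.17) and an adjusted p of 0.000204 (limma). Snora73a had a ratio of 2.31 (1.73 to 3.08), and its peak was at CT9.36, beside CT9.38 for Snora73b. Snora31, in the gene of the translationally controlled protein Tpt1, spanned log2 7.38 to 8.79 with a ratio of 1.95 (1.62 to 2.35) and a peak at CT9.38 ± 0.512 h (adjusted p = 1.28e-05, limma). Snord35b had the largest ratio among box C/D snoRNAs of the liver, 1.72 (1.48 to 2.00), with a peak at CT9.02.

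**Figure D1:**
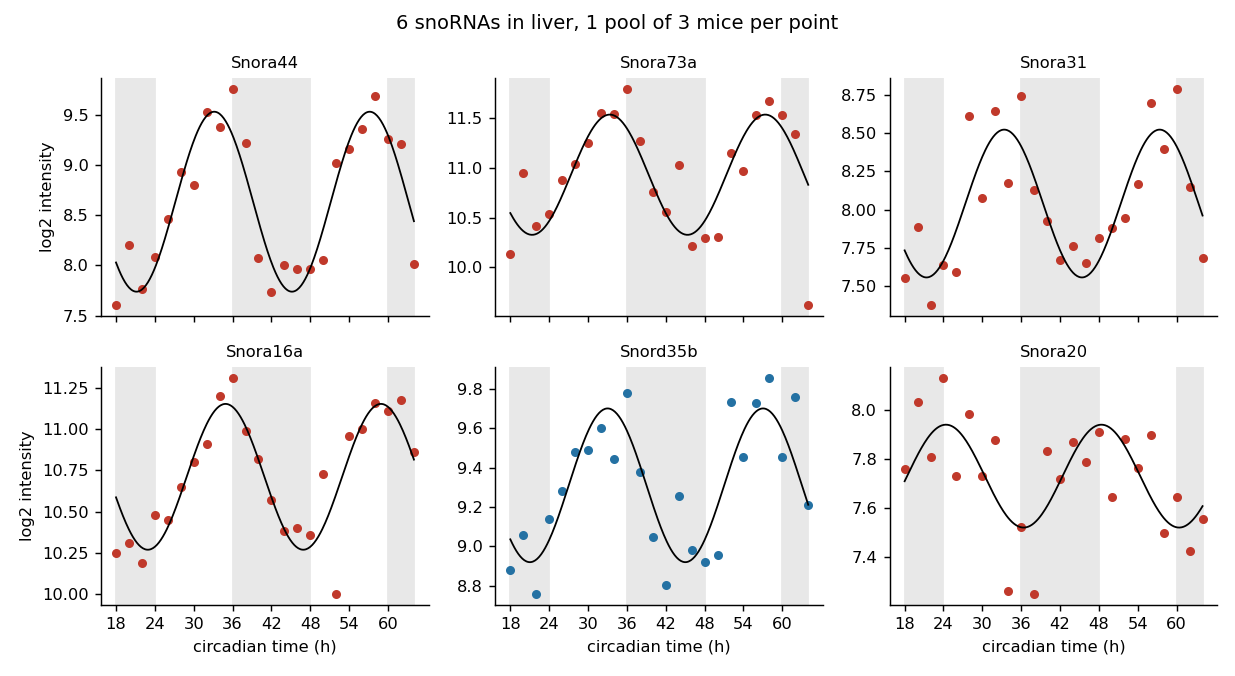
Log2 intensity of 6 snoRNAs in liver against circadian time, with 1 point per array, the fitted 24 h wave as a line and subjective night in grey (red for box H/ACA, blue for box C/D). Snora44 spans 7.61 to 9.76, and Snora20 is high where the others are low.

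Smaller waves in liver ran from 1.54-fold for Snora23 (in the importin gene Ipo7) through 1.502 for Snora3 (Rpl27a), 1.34 for Snord22 and 1.23 for Snora7a (Rpl32) to 1.09 for Snord104. Snora20, in the chaperonin gene Tcp1, ran the other way. It was lowest at log2 7.25 (CT38), had a median of 7.76, was highest at 8.13 (CT24), and peaked at CT0.378 ± 0.857 h with a ratio of 1.34 (1.17 to 1.53, adjusted p = 0.00465, limma). Snhg15, a noncoding host gene, had a ratio of 1.28 (1.15 to 1.42) and a peak at CT9.62, among those of the snoRNAs.

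The liver calls depended in part on what else was held in the fit. The mean over the 51 snoRNAs itself had a wave of 1.21-fold with a peak at CT10.3 in liver. With the mean of the other snoRNAs as a covariate, 23 members were called (45.8% of all genes), of which 11 were among the 20 above: Snora44, Snora73a, Snora73b, Snora31, Snora16a, Snora3, Snora74a, Snora20, Snord35b, Snord15a and Snord15b. Fat cell markers (9 of 10 measured, mean log2 7.27 to 7.41 over the liver arrays, SD 0.0354) followed the snoRNA mean with r = 0.708 over the 24 arrays they share. This list was picked afterwards for the largest r of either sign among lists of other cell types, so its r is high by selection. Whether it reads fat cells here was not tested. With that marker mean as a covariate, 13 of the 20 were called (20.8% of all genes), and the same 11 were among them. Leaving out any 1 liver array left 19 to 25 members called, against 23.7% to 27.5% of all genes.

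In aorta 9 of the 57 members (15.8%) had a wave, against 5.09% of all genes. All 9 were snoRNAs, 6 of them box H/ACA, and their peaks lay together between CT4.22 and CT7.86. Snord118 had the largest ratio, 2.09 (1.52 to 2.89) with a peak at CT4.22 ± 0.813 h (adjusted p = 0.0123, limma), on log2 values of 6.88 to 9.05. Snora44 followed with 1.87 (1.47 to 2.39) at CT5.8 (adjusted p = 0.00454, limma), then Snora74a (U19) with 1.73 and Snora73a with 1.57.

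The aortic calls moved with single arrays. Snora74a, Snora73a, Snora33, Snord104 and Snord22 were lowest at CT26, and the mean deviation over all snoRNAs was -0.331 log2 at CT26 and 0.207 at CT34. Without the array of CT26, 16 members were called. Without that of CT18, CT28, CT30, CT32, CT40, CT52 or CT54 (each left out alone), 4 were called, and without that of CT42, CT44 or CT64, 5. With the mean of the other snoRNAs as a covariate 1 was called (Snord118), and with ranks in place of log2 values 0. Brown fat markers (9 of 10 measured, mean log2 9.97 to 11.04 over the aorta arrays) followed the snoRNA mean with r = 0.422. This list too was picked afterwards for the largest r of either sign. With it as a covariate 1 was called (Snora3), against 3.12% of all genes.

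Lung also had 9 members with a wave (15.8%), against 20.9% of all genes. Among the 8 snoRNAs, 7 peaked between CT4 and CT8. Snord118 spanned log2 6.16 (CT62) to 9.72 (CT28) around a median of 7.82, with a ratio of 2.97 (1.68 to 5.25) and a peak at CT4.81 ± 0.977 h (adjusted p = 0.0163, limma). Snora33, in Rps12, had a ratio of 1.57 at CT5.34, and Snord15a and Snord15b, both in Rps3, had 1.31 at CT5.56 and 1.34 at CT6.19. Fitted to each day apart, Snord118 had 3.11-fold on the first day and 3.02-fold on the second, while Snord22 had 1.36-fold at CT5.45 and 1.17-fold at CT10.6. Snord14e, in the gene of the constitutive chaperone Hspa8, stood apart with 1.85 at CT15.3 ± 1.16 h.

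Here too the snoRNAs moved as a group. Their mean had a wave of 1.16-fold with a peak at CT5.95. With the mean of the other snoRNAs as a covariate 2 members were called, Snord15a and the host gene Snhg11, against 14.4% of all genes. Lymphocyte markers (10 of 12 measured, mean log2 7.08 to 7.81) followed the snoRNA mean with r = 0.69 over the 24 lung arrays. They were again picked afterwards for the largest r of either sign, so this r is high by selection. With the lymphocyte markers as a covariate 4 members were called (16.2% of all genes): Snord15a, Snord53, Snora44 and Snhg11. With a straight line as a covariate 16 were called (18.8% of all genes). Leaving out the array of CT20, CT56 or CT64 gave 16, 14 and 14, against 21.5%, 19.9% and 23.3% of all genes.

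**Figure D2:**
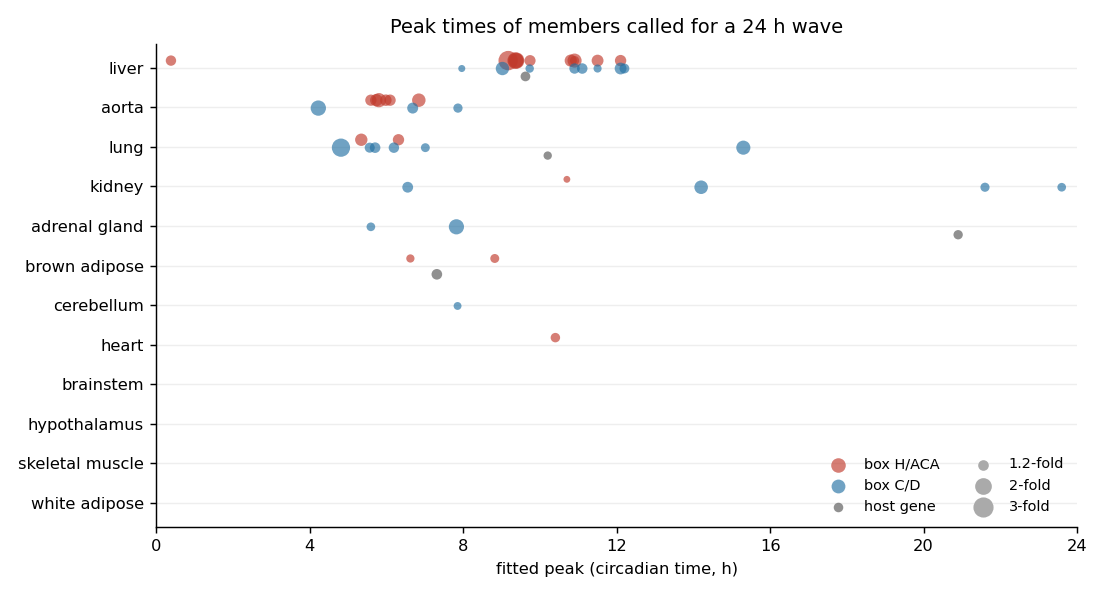
Fitted peak time (circadian time, h) of each member called for a 24 h wave, by tissue, with larger points for larger peak-to-trough ratios and colours for the 3 classes. Points gather between CT8 and CT13 in liver and between CT4 and CT8 in aorta and lung, and 4 tissues have none.

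In kidney 5 members were called (8.77%), against 25.8% of all genes. They peaked at scattered times. Snord14e had a ratio of 1.75 (1.29 to 2.37) at CT14.2 ± 1.02 h, Snord118 1.38 at CT6.55, Snord58b (in Rpl17) 1.23 at CT21.6 and Snord87 (in Snhg6) 1.19 at CT23.6. Snora52, in Rplp2, had the smallest called ratio of any member, 1.08. Of these 5, 2 lay above the median gene of kidney (log2 7.06). Snord118 ran from log2 4.766 to 5.833 there, Snord58b from 3.755 to 4.379 and Snord87 from 6.036 to 6.665.

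Adrenal gland had 3 of 57 called, against 5.89% of all genes. Snord118 had a ratio of 2.07 (1.46 to 2.92) at CT7.82, and Snord104 one of 1.19 at CT5.59. The host gene Snhg5 peaked in the night, at CT20.9 ± 0.684 h, with 1.24 (1.15 to 1.35, adjusted p = 0.00294, limma). Liver cell markers (12 of 12 measured) spread from a mean log2 of 6.57 to 12.07 over the adrenal arrays, highest at CT50. With them as a covariate Snhg5 was the 1 member called, against 4.2% of all genes.

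Brown adipose also had 3 called, against 16.5% of all genes. The host gene Snhg16 had a ratio of 1.36 (1.18 to 1.58) at CT7.31 ± 0.876 h, Snora23 1.21 at CT8.82 and Snora3 1.16 at CT6.62. Cerebellum had 1 called, Snord42b with 1.14 (1.08 to 1.19) at CT7.85 (adjusted p = 0.00286, limma), against 5.49% of all genes. Heart had 1, Snora23 with 1.25 (1.11 to 1.41) at CT10.4, against 8.64% of all genes.

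Brainstem (4.78% of all genes called), hypothalamus (1.8%), skeletal muscle (5.12%) and white adipose (4.85%) had 0 members called by limma. At an unadjusted p under 0.05 there were 16 members in brainstem (16.5% of all genes), 6 in hypothalamus (17.5%), 3 in skeletal muscle (15.9%) and 6 in white adipose (17%). With array weights in limma 2 were called in brainstem, 0 in hypothalamus, 1 in skeletal muscle and 1 in white adipose. The share of all genes with array weights is not given for these tissues.

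**Figure D3:**
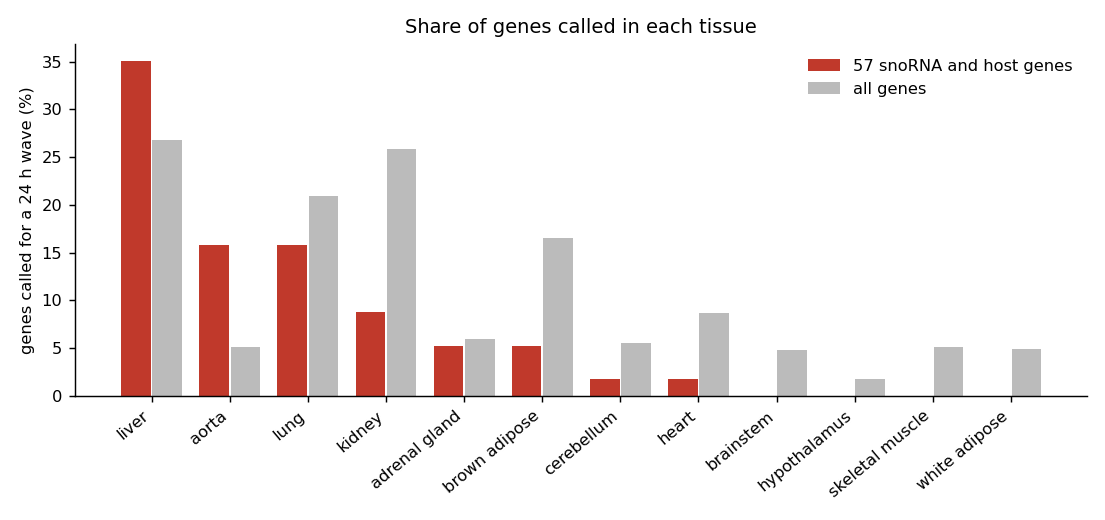
Percent of genes called for a 24 h wave in each tissue, for the 57 snoRNA and host genes (red) and for all 19938 genes (grey). Liver has 35.1% of the members, against 26.8% of all genes, and kidney has 8.77%, against 25.8%.

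Whether the wave of a gene differed between tissues was tested in 1 fit to all 288 arrays. It did for 20 of the 57 members, against 49.6% of all genes. Snora44 had the smallest adjusted p, 1.2e-10 (limma, 22 interaction coefficients). Beside its 3.47-fold wave in liver, 1.87-fold in aorta and 1.44-fold in lung, its fitted ratio was 1.37 in brown adipose and 1.25 or less in the other tissues, without a call. Snord118, Snora33, Snord22 and Snora3 came next.

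Pairs of the 3 tissues with most calls were set against each other after the values had been seen. Between liver and lung 17 members differed, against 20.7% of all genes, and between liver and aorta 11 did, against the same 20.7%. Between lung and aorta 1 member differed, Snord57, against 5.28%. Snord57 itself had a called wave in 0 tissues, with fitted ratios of 1.126 at CT3.91 in lung and 1.162 at CT16.0 in aorta. Snora3 peaked at CT11.5 in liver and at CT5.98 in aorta, with alike ratios of 1.502 in liver and 1.457 in aorta (adjusted p of the difference 0.000213, limma). Snord15a peaked at CT12.2 in liver and at CT5.56 in lung, with ratios of 1.29 in liver and 1.31 in lung (adjusted p = 0.000485, limma).

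Snord118 was the member called in most tissues, 4 of 12. It is required for making the large ribosomal subunit and has a promoter of its own. Its level was highest in white adipose (log2 9.03 ± 0.44, SD over 24 arrays), followed by adrenal gland (8.11 ± 0.57), aorta (7.97 ± 0.57) and lung (7.84 ± 0.94), and the last 3 of these differed by less than their SDs. Brown adipose (7.38 ± 0.35), skeletal muscle (7.27 ± 0.50) and liver (7.01 ± 0.35) lay between. Hypothalamus (5.77 ± 0.18) came next, and cerebellum, kidney, brainstem and heart (5.18 to 5.26) did not differ beyond their spread.

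Where the host gene is itself measured, which held for 27 snoRNAs in 23 hosts, both can be read on the same arrays. The wave of both was called for 4 of the 27 pairs in lung, 1 in kidney, 1 in liver and none in the other tissues. In liver 6 snoRNAs were called without their host and 11 were not called although their host was. The median r of a snoRNA with its own host over the 24 arrays of a tissue was between 0.137 (adrenal gland) and 0.371 (lung), against 0.080 and 0.286 in these tissues with the other 22 hosts.

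The pair with the highest median r over the 12 tissues was Snord14e and Hspa8, at 0.483. In kidney Snord14e peaked at CT14.2, and Hspa8, with a ratio of 1.13 (1.06 to 1.21), peaked at CT15.0. In lung the peaks were CT15.3 for Snord14e and CT17.7 for Hspa8, whose ratio was 1.28. The wave of Hspa8 was called in 10 of 12 tissues, and that of Snord14e in 2, although its ratio was the larger of the pair in each tissue (1.12 to 1.90).

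Other pairs with high median r were Snora75 with the nucleolin gene Ncl (0.413), Snora30 with the chromatin remodeller Srcap (0.407), Snora21 with Rpl23 (0.386), Snord61 with the splicing regulator Rbmx (0.357), Snord53 with Wdr43 (0.353), Snord73b with Rps3a1 (0.346) and Snora62 with Rpsa (0.303). In lung Snora33 and Rps12 had r = 0.885 and peaked at CT5.34 and CT5.44, with a ratio of 1.57 for the snoRNA and 1.21 (1.11 to 1.31) for the host. Snord15b and Rps3 had r = 0.834 there, and peaked at CT6.19 and CT7.41.

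In other pairs the snoRNA and the host went apart. Snora20 peaked at CT0.378 in liver, while Tcp1 peaked at CT14.5 ± 0.448 h with a ratio of 1.303 (1.22 to 1.39). Their r was -0.325 over the liver arrays and 0.658 once the fitted wave and line of each had been taken away. Snora31 had its 1.95-fold wave in liver while Tpt1 had a ratio of 1.03 (adjusted p = 0.569, limma). In liver Ncl had a called wave of 1.23-fold at CT11.3, and neither Snora75 (1.24-fold, adjusted p = 0.0644, limma) nor Snord82 (1.01-fold) was called. The lowest median r belonged to Snord57 with Nop56 (-0.103), Snora41 with Eef1b2 (-0.0184), Snord73a with Rps3a1 (0.0111) and Snora52 with Rplp2 (0.0418).

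Of the 6 host genes, 4 had a called wave in 1 tissue each, as given above. Gas5, known for arresting growth and for decay of its spliced RNA during translation, was called in 0 tissues by limma, with an unadjusted p under 0.05 in 3, and Snhg17 in 0, with 2 unadjusted. On the 1 probe set used, Gas5 was highest in liver (log2 10.20 ± 0.11, SD over 24 arrays) and lowest in aorta (8.77 ± 0.11). Snhg17 was also highest in liver (9.06 ± 0.11), above all other tissues (7.42 to 8.21). Snhg15 was highest in adrenal gland (8.39 ± 0.20) and liver (8.37 ± 0.18), which did not differ beyond their spread. Snhg5 ran from 5.83 ± 0.081 in kidney to 8.19 ± 0.31 in white adipose, and Snhg16 from 5.88 ± 0.13 in skeletal muscle to 7.12 ± 0.20 in kidney.

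Snhg11 was a gene of the brain regions. It reached log2 11.03 ± 0.11 in hypothalamus, 10.50 ± 0.082 in brainstem and 10.31 ± 0.042 in cerebellum, against 8.34 ± 0.13 in kidney, 8.20 ± 0.23 in white adipose and 5.80 to 7.03 in the other 7 tissues. The groups did not overlap. Its mean was 10.61 ± 0.37 over the 3 brain regions and 6.96 ± 0.85 over the 9 other tissues (SD over tissue means), a difference of 3.65 log2 (95% interval 2.61 to 4.70) or 12.6-fold, at an adjusted p of 0.000144 (limma on the 12 tissue means). Array medians lay close together in all tissues (95.2 to 106.6). The SD of log2 values on an array ran from 1.858 to 2.022 in adrenal gland and from 2.077 to 2.141 in kidney. The ranges of many tissues overlapped. Whether normalization was done tissue by tissue is not stated, and if it was, it can shift levels between tissues.

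Besides Snhg11, 1 other member was higher in brain regions, so that 2 of 57 were, against 12.7% of all genes. That was Snord42b, in Rpl23a, with 9.14 ± 0.11 in brain regions and 7.48 ± 0.50 elsewhere, a difference of 1.66 log2 (1.01 to 2.31, adjusted p = 0.00157, limma). Its host Rpl23a had r = -0.772 with it across the 12 tissue means. Lower in brain regions were 8 of 57 members, against 8.69% of all genes.

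Snora31 had the largest of these differences, with 6.30 ± 0.36 in brain regions and 7.89 ± 0.43 elsewhere, a difference of -1.59 log2 (-2.19 to -0.98, adjusted p = 0.00133, limma). Among the members called lower, the groups did not overlap for Snora31, Snora41, Snora74a, Snord53 and Snhg15. They also did not overlap for 2 members without a call. These were Snhg17 (lower, adjusted p = 0.0848, limma) and Snord49a (higher, adjusted p = 0.0836, limma). The share of all genes without overlap was not counted. Snora44 fell by 1.03 log2 in brain regions, but heart, at 6.84, was lower still. The differences were -0.84 for Snora41, -0.78 for Snora33, -0.72 for Snhg15, -0.68 for Snora74a, -0.63 for Snord53 and -0.61 for Snora2b, with adjusted p from 0.0164 to 0.0489 (limma). Leaving out 1 tissue at a time gave 1 to 10 such members: 1 without hypothalamus, 2 without brainstem, 2 without cerebellum and 5 without aorta. Snhg11, Snord42b and Snora31 were called each time.

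As a class, all 20 box H/ACA snoRNAs had a lower mean in brain regions, with a median difference of -0.66 log2. Of box C/D snoRNAs 22 of 31 had a lower mean, with a median of -0.17, against 60.4% and -0.15 over all genes. Liver was the tissue of the highest level for 22 of the 51 snoRNAs (43.1%), against 28.1% of all genes.

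**Figure D4:**
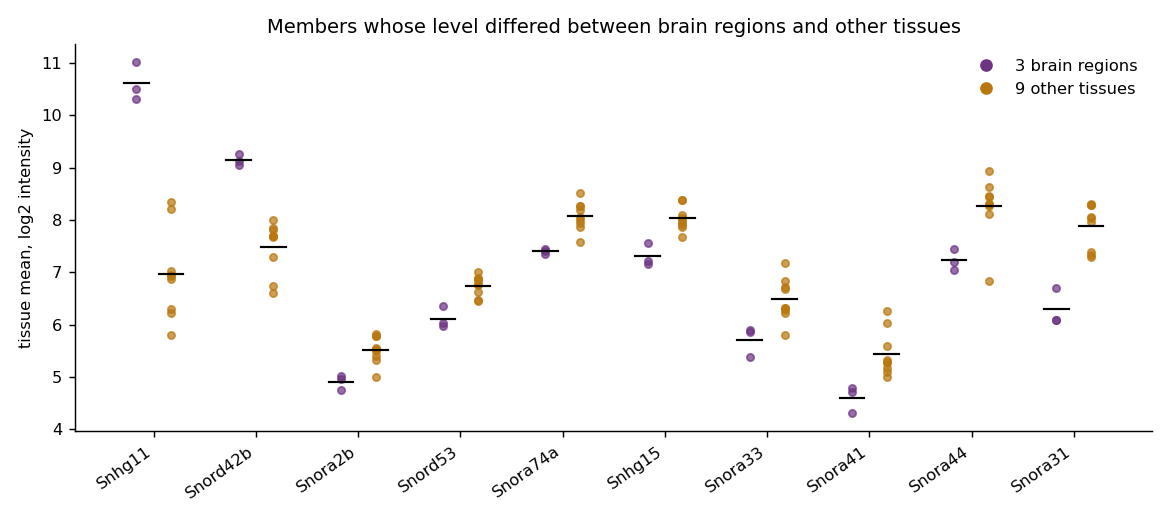
Tissue means (log2 intensity) of the 10 members called for a difference between brain regions and other tissues, with 1 point per tissue (purple for the 3 brain regions, ochre for the 9 other tissues) and a bar for the mean of each group. Snhg11 and Snord42b are higher in brain regions, and the other 8 are lower.

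The second question was whether levels drifted over the 2 days of darkness. A slope per 24 h was tested with the 24 h wave held in the fit. In brainstem 5 members, all box C/D, rose, against 0.396% of all genes, and 0 fell, against 0.0201%. Snord33 rose by 0.39 ± 0.069 log2 per 24 h (SE), Snord49b by 0.36, Snord47 (in Gas5) by 0.29, Snord87 by 0.23 and Snord35a by 0.19. Snord33 and Snord35a share the host Rpl13a. Their adjusted p ran from 0.00884 to 0.0306 (limma). Snord49b was lowest at log2 9.06 (CT18), had a median of 9.78 and was highest at 10.15 (CT58), and the lowest values of the other 4 were all at CT20.

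Slopes of snoRNAs in brainstem were above 0 in 41 of 51, with a median of 0.072 log2 per 24 h, against -0.0077 over all genes. The mean deviation of all snoRNAs was -0.261 at CT18, the lowest of any brainstem array. Without CT18, CT32 or CT48, each left out alone, 3 members were called, against 0.115%, 0.125% and 0.0853% of all genes in either direction. With the mean of the other snoRNAs as a covariate 0 were called, against 0.01%. With ranks 0 were called, but so were 0.0% of all genes, so ranks do not set these members apart. Smooth muscle markers (10 of 10 measured, mean log2 6.36 to 6.61) had r = -0.50 with the snoRNA mean. This list was picked afterwards for the largest r of either sign among lists of other cell types. With it as a covariate 1 was called, against 0.0351% of all genes.

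In kidney Snora23 rose by 0.26 ± 0.038 log2 per 24 h (adjusted p = 0.00377, limma), on values of 8.43 (CT18) to 9.10 (CT48), against 1.09% of all genes rising and 1.88% falling there. In skeletal muscle Snhg11 fell by 0.35 ± 0.058 log2 per 24 h (adjusted p = 0.000359, limma), on values of 5.89 (CT56) to 6.64 (CT24), against 1.7% of all genes falling and 0.0401% rising. Both passed under every alternative that tested them. In the other 9 tissues limma called 0 members for a trend, while 0 to 11 a tissue rose and 1 to 22 fell at an unadjusted p under 0.05. Lung had 22 members with a fall and 0 with a rise at an unadjusted p under 0.05, and 5 of its 51 snoRNAs had a slope above 0, with a median of -0.070 over the snoRNAs and 0.00022 over all genes. The share of all genes with a trend at an unadjusted p under 0.05 was not counted, so these unadjusted counts have no background beside them. The slope differed between tissues for 8 of 57 members, against 11.3% of all genes.

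The third question was how far the members move together from array to array. For each array the deviations of the 51 snoRNAs from their tissue means were averaged. The SD of this mean over the arrays of a tissue ran from 0.051 log2 in cerebellum to 0.177 in adrenal gland. The mean was 0.607 on the adrenal array of CT60 and 0.340 on that of CT42, while the 6 host genes averaged 0.043 and 0.059 on these arrays. In white adipose it was -0.412 at CT58 and 0.344 at CT60. On the CT60 and CT58 arrays of white adipose the hosts averaged -0.061 and 0.080, so that they had the opposite sign there.

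**Figure D5:**
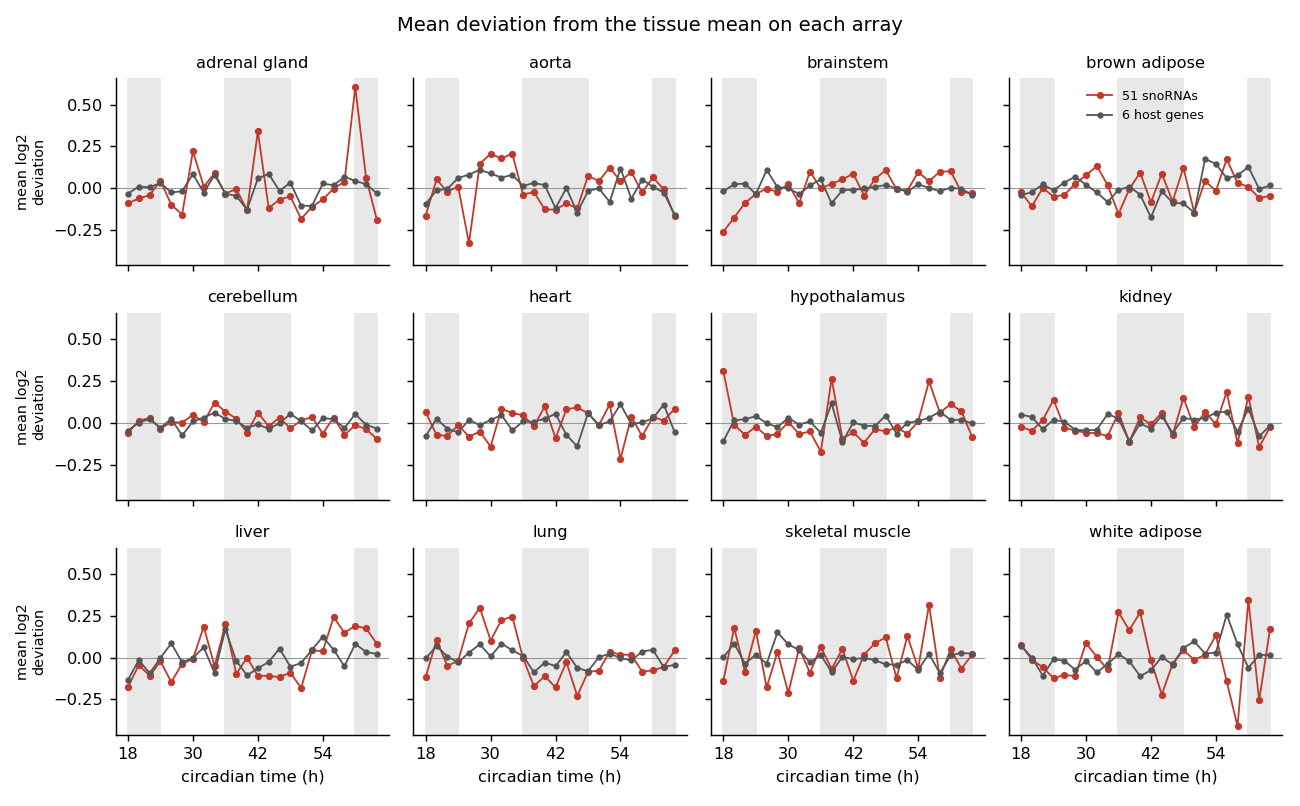
Mean deviation from the tissue mean (log2) on each array against circadian time, for the 51 snoRNAs (red) and the 6 host genes (dark grey) in 12 tissues, with subjective night shaded. In lung the snoRNAs reach 0.298 at CT28 and stay within 0.09 of 0 from CT48 on, and in adrenal gland they reach 0.340 at CT42 and 0.607 at CT60.

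The correlation of each snoRNA with the mean of the others, over the 24 arrays of a tissue, had a median between 0.37 (brown adipose) and 0.727 (lung). Over all genes the median lay between -0.079 and 0.027. Host genes had medians from -0.314 (white adipose) to 0.474 (lung), and 306 other short RNAs, mostly microRNAs, from -0.289 (lung) to 0.315 (adrenal gland). These r values are descriptions: snoRNAs share the arrays, and some share a host.

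Snord35b (median r over tissues 0.831), Snora7a (0.821) and Snord73b (0.807) followed the common mean most. The host gene Snhg17 (-0.277), Snord8 (0.057) and Snhg11 (0.0998) followed it least. At matched times, the common mean of 1 tissue had a median r of 0.109 with that of another over 66 pairs of tissues, from -0.311 to 0.614. Of the 66 values, 42 were above 0.

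Genes that act on snoRNAs were counted in 5 lists. Of 8 measured core proteins of snoRNA particles, 4 had a wave in kidney (25.8% of all genes), 3 in lung (20.9%), and 1 each in liver, aorta, brown adipose, cerebellum, skeletal muscle and white adipose. Nhp2, of the box H/ACA particle, had a wave in aorta (1.28-fold at CT7.76), lung (1.18 at CT7.33), kidney (1.15 at CT8.19) and brown adipose (1.18 at CT11.8). Nop56, of the box C/D particle, peaked at CT14.1 in liver with 1.40-fold, and it is also the host of Snord57. Fibrillarin (Fbl) had 1.19-fold at CT6.48 in lung, and dyskerin (Dkc1) 1.34-fold at CT7.67 in white adipose.

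Of 13 assembly and trafficking factors, 7 had a wave in liver (26.8% of all genes), 4 in kidney (25.8%), 3 in heart (8.64%) and 1 in brown adipose (16.5%). In liver Nolc1, which shuttles between nucleolus and Cajal bodies, had a ratio of 1.45 at CT17.0, Ruvbl1 one of 1.31 at CT22.2, Naf1 one of 1.198 at CT1.81 and Shq1 one of 1.19 at CT23.0.

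Nonsense-mediated decay, which removes spliced RNA of many noncoding hosts, had 4 of 7 genes with a wave in heart, against 8.64% of all genes, and 2 or fewer in each other tissue. Upf1, its helicase, had 1.25-fold at CT17.5 in liver and 1.13 at CT17.4 in heart, Smg1, the kinase of Upf1, 1.16 at CT17.4 in heart, and Smg5 1.25 at CT18.8 in heart. Of 7 genes that trim nuclear RNA, 5 had a wave in kidney (25.8% of all genes) and 1 each in liver (26.8%), brown adipose (16.5%) and cerebellum (5.49%), among them the exosome partner Mphosph6 (1.32-fold at CT21.6 in brown adipose) and the nuclease Exosc10 (1.12 at CT20.0 in liver). Of 9 regulators of pyrimidine-run transcripts, 6 had a wave in kidney (25.8% of all genes), 4 in liver (26.8%), 3 in aorta (5.09%), 3 in brown adipose (16.5%) and 2 in heart (8.64%), and 1 each in brainstem, cerebellum, hypothalamus and lung. Larp1, which binds such runs, had 1.27-fold at CT22.5 in liver, and the growth kinase Mtor 1.36-fold at CT7.17. For a trend, limma called 0 of the 528 pairs of gene and tissue in these 5 lists, with 35 rising and 23 falling at an unadjusted p under 0.05. The share of all genes at that unadjusted p was not counted.

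SnoRNAs that share a probe set with another symbol are not members, and 41 probe sets of this kind were fitted apart. Of the 41, 24 were of the Snord116 cluster and held 7 distinct profiles, so that the counts below include repeats of the same values. In liver 1 of the 41 had a wave, against 10.6% of the 13767 probe sets with several symbols or none. It reads Mir1291 and Snora34, with a ratio of 1.36, a peak at CT10.5 and an adjusted p of 0.00966 (limma), inside the hours in which 17 liver snoRNAs peaked. In each other tissue 0 of the 41 were called by limma, with 0 to 9 at an unadjusted p under 0.05 and 27 in white adipose. The share of the 13767 probe sets at this unadjusted p was not counted. In these tissues few such probe sets were called at all: 0.552% in adrenal gland, 0.835% in aorta, 0.0581% in brainstem, 2.56% in brown adipose, 0.211% in cerebellum, 0.697% in heart, 0.0291% in hypothalamus, 3.77% in kidney, 2.85% in lung, 0.4% in skeletal muscle and 0.37% in white adipose.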

How the data were processed

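Per the submitters' processing notes, the authors made the values with Affymetrix Expression Console and GCRMA, with no version given. The values as deposited are linear intensity, from 6.9 to 45307.8, in 35556 probe sets on 288 arrays. RNA was purified on columns that hold long RNA better than RNA of snoRNA length, per the labels' protocols and the general design of such columns. The deposited intensity was taken to log2 with no pseudocount. Probe sets with 1 symbol in GEO's platform annotation were kept, and the one with the highest mean was used per gene. A tissue's 24 arrays were fitted with limma 3.58.1 in R 4.3.3 (eBayes with trend), and p-values were adjusted over all 19938 genes. Arrays have no depth, so their number limits the precision.

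Members, lists and the rule for naming genes were chosen with earlier results of these data known. Named were all host genes, Snord118, in each tissue up to 4 snoRNAs with the largest wave or slope among those called, members called in most tissues, those with the largest brain differences, the 10 smallest p of wave differences between tissues, members at the ends of the correlation with the array mean, snoRNA and host pairs at the ends of median r, and up to 4 genes per list. Further members were named where a count was small or a value was singled out, after their values had been seen. The host of a snoRNA is the gene of smallest span around it in RefSeq. Strand was planned for this match but is not in the table used, and 3 snoRNAs lay in the span of 2 genes. The markers of each labelled tissue were highest there, except that the neuron list of brainstem was slightly higher in hypothalamus (11.10 and 11.17 log2). The fits were tested on simulated data. Other settings numbered 9 for waves and 8 for trends, and on top of these a further marker covariate and the leaving out of single arrays were added after the values had been seen. An array stands apart where the snoRNA mean is over 5 scaled median absolute deviations and 0.5 log2 off, or its correlation with the others is over 5 such deviations and 0.003 low.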

Additional observations from a re-analysis of the deposited data

Results flagged for a closer look

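The 24 h wave differed between the 12 tissues, in limma's test of 22 interaction coefficients, for 10 named members, given here with their adjusted p. Snora44 had 1.2e-10, Snord118 3.38e-08 and Snora33 3.59e-07. Snord22 had 5.67e-05, Snora3 8.68e-05 and Snora73a 0.000302. Snora73b had 0.00151, Snora23 0.00166, Snora16a 0.00196 and Snora21 0.00198. In Snora33 the wave was 1.57-fold in lung and 1.44-fold in aorta, and 1.05-fold in liver without a call.

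The slope over the 2 days differed between tissues, in limma's test of 11 coefficients, for 8 members. Snhg11 (adjusted p = 2.14e-07) fell by 0.35 log2 per 24 h in skeletal muscle, and its slope was -0.27 in aorta (adjusted p = 0.111) and 0.087 in hypothalamus. Snora52 had an adjusted p of 0.000714 with no call in any 1 tissue. Snora23 (0.002) rose by 0.26 in kidney and had a slope of -0.23 in white adipose without a call. Snord33 had 0.0026, Snord87 0.0253 and Snord35a 0.0376, all 3 with their rise in brainstem. Gas5 had 0.00579, with slopes from -0.12 in cerebellum to 0.22 in white adipose, none called. Snord118 had 0.0148, with slopes from -0.69 in lung to 0.12 in kidney, none called.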

How the results depend on the processing

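No trend, brain difference or median r turned its direction. Waves were judged by their call alone, and their peak times were not compared between settings. Of the 51 waves, 17 stayed called under every alternative that tested them, as did 2 of the 7 trends and 3 of the 10 brain differences. For waves and trends, these counts do not include the fits without a single array. Liver moved by over 1.5 times only with the added marker covariate (13). Calls of waves moved as follows, by setting. Brackets hold the share of all genes called under the same setting, given only for tissues with a member called in the main fit. The main shares are given above, and in many of these fits the share of all genes moved as well. Array weights gave 6 in adrenal gland (15.8%), 19 in aorta (9.42%), 6 in brown adipose (20.6%) and 17 in lung (28.5%). They also gave 2 in brainstem, 1 in skeletal muscle and 1 in white adipose. Genes above the median, with shares of the genes tested, gave 5 in brown adipose (32.2%), 2 in heart (19.9%) and 3 in kidney (47.3%). They also gave 2 in brainstem and 1 in hypothalamus. The mean of the other snoRNAs as a covariate gave 1 in aorta (3.06%), 2 in brainstem and 5 in brown adipose (16.2%). It gave 2 in heart (9.1%), 9 in kidney (27.7%) and 2 in lung (14.4%). The most variable marker list of another cell type as a covariate gave 1 in adrenal gland (4.2%), 1 in brainstem and 2 in hypothalamus. Quantile normalization gave 2 in brainstem and 5 in brown adipose (20.8%). Ranks gave 0 in aorta (2.84%), 1 in brown adipose (14.3%) and 0 in heart (6.97%). A straight line gave 3 in cerebellum (5.25%), 0 in heart (8.95%), 1 in hypothalamus and 16 in lung (18.8%). Without arrays that stand apart, 1 was called in hypothalamus. The marker list closest to the snoRNA mean, chosen after seeing the data, gave 1 in aorta (3.12%), 1 in brainstem and 5 in brown adipose (17.6%). It gave 2 in cerebellum (7.0%), 2 in heart (10.8%), 13 in liver (20.8%), 4 in lung (16.2%) and 3 in white adipose. It also gave 1 trend in brainstem (0.0351%). Leaving out single arrays, also chosen later, gave 4 to 16 in aorta (4.13% to 6.16%) and 19 to 25 in liver (23.7% to 27.5%). It gave 8 to 16 in lung (18.3% to 23.7%) and 3 to 5 trends in brainstem (0.0853% to 1.24%). Trends became 0 in brainstem (0.01%) and 2 in aorta with the snoRNA mean, and 0 in brainstem with ranks (0.0%). They became 2 in kidney (6.66%) and 5 in white adipose with array weights, and 0 in skeletal muscle with genes above the median (1.07%). Differences in wave between tissues fell to 13 members and lower levels in brain to 4 with genes above the median, which leaves fewer members tested. Leaving out 1 tissue gave 1 to 10 members lower in brain and 2 higher each time. The time point as a replicate block gave 23 members for the wave difference and 9 for the trend difference, and changed neither by over 1.5 times. The median r of snoRNAs with their mean moved by less than its spread over snoRNAs under residuals, quantile normalization and Spearman correlation. Beyond values given here, the causes were not tested.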

Other observations

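SnoRNAs that share a probe set with another symbol are not members but were measured. The 24 probe sets of the Snord116 cluster, box C/D snoRNAs of the imprinted Prader-Willi region, held 7 distinct profiles. Their tissue means were 11.32 to 11.97 log2 in the 3 brain regions and 6.31 to 10.49 in the 9 other tissues, without overlap, and the brain means exceeded the others by 3.2 to 3.66 log2. For a 24 h wave, limma called 0 of their 288 pairs of probe set and tissue, with 24 at an unadjusted p under 0.05. These 24 pairs include repeats of the same values, and the share of other probe sets at this p was not counted. In white adipose 27 of the 41 probe sets with several symbols passed this unadjusted p. The probe set of Snora24 and Snhg8 had 5.79 in brain regions and 7.05 elsewhere.

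Of 306 other short RNAs, 21 had a wave in liver (6.86%, against 26.8% of all genes), 29 in kidney (9.48%, against 25.8%) and 16 in lung (5.23%, against 20.9%).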
